A study of Ovis aries with 6 samples.

Results

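Complement components and surface regulators were followed in cultured sheep valve endothelial cells (VECs) of the mitral valve, where they form the lining of the leaflets. The set was chosen by gene name and lists 9 genes. CFB, C1R, C1S, SERPING1, CD55 and CD59 were measured, 6 of the 18865 rows of the count table, and C3, CFI and CD46 were not analysed here. All 6 passed the filter on low counts, with 14326 genes tested in all. The cells had received plasma of infarcted sheep (post-MI plasma, 3 libraries; MI, myocardial infarction) or plasma of naive sheep (naive plasma, 3 libraries) for 24 h before their RNA was sequenced. The labels give no strain, age or sex of the sheep, no time between infarction and plasma collection, and no count of cell donors or clones. Separate cultures or plasma donors for the libraries of a group are not stated either, so each p-value rests on library-to-library spread that may be technical.

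Complement is a cascade of plasma proteases that marks and lyses targets. The classical pathway starts when C1q binds a surface and activates its partner proteases C1r and C1s, and C1s then cleaves C4 and C2. The alternative pathway amplifies deposited C3b with factor B, the product of CFB, as the protease of its C3 convertase. Host cells limit the cascade with C1 inhibitor (SERPING1), which inactivates C1r and C1s, and with membrane proteins such as CD55, which speeds the decay of convertases, and CD59, which blocks assembly of the lytic pore. Most circulating complement is made in the liver, and in human studies endothelial cells also make several components. The values given are RNA of the cells. Complement protein, in the cells or in the plasma added to them, was not measured.

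Total counts were 14858472 to 18747848 in the post-MI libraries and 17446474 to 20672794 in the naive libraries. Endothelial markers were present in every library, with summed levels of 3176 to 4385 CPM (counts scaled by the library total) in post-MI and 2887 to 3631 CPM in naive libraries. Markers of fibroblasts and valve interstitial cells were also present, summing to 13739 to 18451 CPM in post-MI and 8094 to 20041 CPM in naive libraries. The collagen genes COL1A1, COL1A2 and COL3A1 made up nearly all of that sum. Markers of smooth muscle cells and pericytes summed to 4561 to 6238 CPM in post-MI and 908 to 5040 CPM in naive libraries, mostly ACTA2. In both of these lists the lowest value was naive replicate 1. Leukocyte markers summed to 37.0 to 43.5 CPM in post-MI and 36.8 to 57.3 CPM in naive libraries. The defining leukocyte gene PTPRC had 12, 12 and 23 counts with post-MI and 4, 6 and 3 counts with naive plasma, and S100A8 had 0 counts in all 6 libraries. Hepatocyte markers summed to 1248 to 1955 CPM in post-MI and 469 to 1257 CPM in naive libraries, of which APOA1 and TF made up nearly all. The hepatocyte genes TTR, FGA, FGG and AHSG were at 0 in every library and ALB reached 2 counts. A pair of libraries stood apart in ways that touch the complement genes. Post-MI replicate 3 had a summed level of 3142 CPM for the interferon response list, against 402 to 585 CPM in the other 5 libraries. Naive replicate 1 had 4084 CPM for the inflammatory activation list, against 635 to 1556 CPM in the other 5. The part of cell mixture and of these libraries in the results was not tested, beyond leaving single libraries out. In bulk RNA, fewer cells of a type and less RNA per cell cannot be told apart.

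The comparison of post-MI with naive plasma asked whether plasma after infarction changes gene expression in VECs. None of the 6 complement genes passed the test, and the groups overlapped in all 6. CFB had the largest difference of the 6 in post-MI plasma, at 2.24-fold the naive level, and 1 post-MI library carried most of it. C1R and C1S, the paired classical proteases, were high together in 1 naive and 1 post-MI library and low in the other 4. The soluble inhibitor SERPING1 averaged somewhat more with post-MI plasma, and the surface regulators CD55 and CD59 differed least.

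By the quasi-likelihood test of edgeR, adjusted over all genes tested by Benjamini and Hochberg, 0 of the 6 were called, beside 0% of the 14326 genes tested, and limma-voom gave the same 2 counts. At an unadjusted p under 0.05 edgeR gave 1 of the 6 (CFB), where the share over all genes tested was 8.68%. That count was 0 in limma-voom, with a CFB p of 0.0700, and in 4 of the 6 fits that left out 1 library. DESeq2 called 0 of the members beside 1.56% of genes with an adjusted p. Post-MI and naive CPM were fully separated in 0 of the 6 members and in 16.1% of genes tested. The median log2 fold change, post-MI minus naive, was -0.06 over the 6 members and -0.01 over all genes tested, and 3 members had a positive and 3 a negative value.

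**Figure D1:**
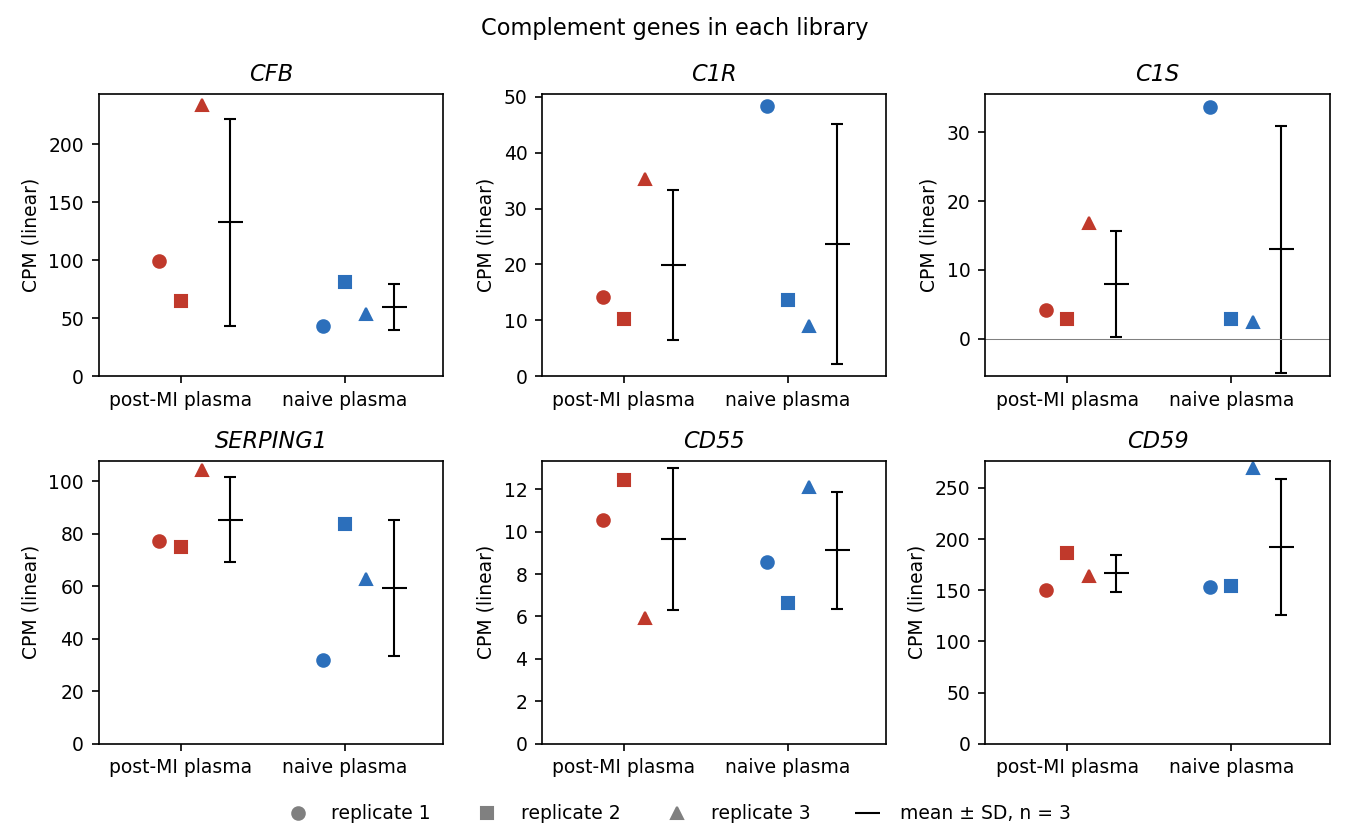
Level of each measured complement gene in CPM (linear axis) in 3 post-MI and 3 naive libraries, with the mean and SD of each group in black. CFB is highest in post-MI replicate 3 at 234 CPM, and C1R and C1S share a high naive replicate 1 and a high post-MI replicate 3; the lower SD bar of C1S in naive plasma runs below 0 because 1 library carries the mean.

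CFB encodes factor B, which supplies the catalytic part of the alternative pathway C3 convertase. CFB was at 99.6, 64.6 and 234 CPM in post-MI replicates 1, 2 and 3, against 43.4, 81.4 and 53.2 CPM in naive replicates 1, 2 and 3. Post-MI replicate 3 stood 2.35 times above the next library, post-MI replicate 1, and post-MI replicate 2 lay below naive replicate 2. The group means were 133 ± 89.5 CPM with post-MI and 59.3 ± 19.7 CPM with naive plasma (SD, n = 3 each). Post-MI minus naive, the log2 fold change was 1.16 ± 0.48 (SE), with a 95% interval of 0.03 to 2.29 before adjustment and an adjusted p of 0.566 by edgeR. Without post-MI replicate 3 it was 0.47, and over the other single libraries left out it ran from 0.99 to 1.49. Only 1.20% of genes tested were at least 1.5 times higher in post-MI replicate 3 than in each other library. That comparison was chosen after the values were seen.

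The interferon-induced gene MX2 was at 2.31, 2.19 and 328 CPM in post-MI replicates 1, 2 and 3 and at 1.75, 8.69 and 0.705 CPM in naive replicates 1, 2 and 3. The same library was thus the highest of the 6 for CFB and MX2, as it was for 13.3% of genes tested. IRF1, an interferon-responsive transcription factor, was at 37.7, 27.5 and 54.5 CPM with post-MI plasma. With naive plasma IRF1 was at 17.0, 24.7 and 15.6 CPM. Its groups did not overlap, as was the case in either direction for 16.1% of genes tested. The adjusted p of IRF1 was 0.460 in edgeR and 0.0491 in DESeq2. Without post-MI replicate 3 the log2 fold change of CFB was 0.47. Whether CFB and the interferon response genes are linked was not tested.

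C2, the classical pathway relative of factor B and its direct neighbour on sheep chromosome 20 in the RefSeq gene order, was also at its highest in post-MI replicate 3. C2 had 53, 25 and 213 counts, or 2.84, 1.71 and 12.3 CPM, in post-MI replicates 1, 2 and 3, against 79, 53 and 23 counts, or 3.95, 3.07 and 1.08 CPM, in naive replicates 1, 2 and 3. Its log2 fold change was 1.06 ± 0.79 (SE; 0.674 was its adjusted p by edgeR), and -0.24 without post-MI replicate 3. The 2 genes lie side by side, and how reads at their shared border were assigned was not examined.

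**Figure D2:**
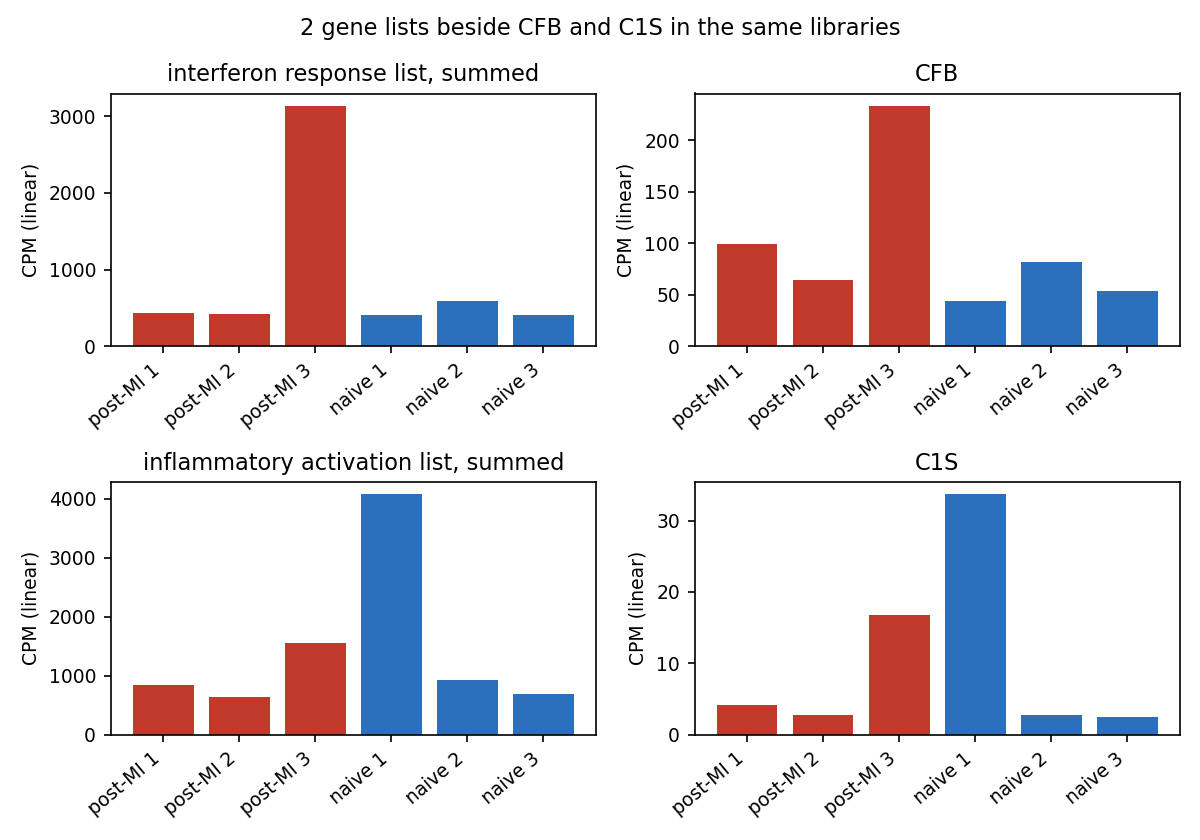
Summed CPM of the interferon response list (17 genes in the table) beside CFB, and of the inflammatory activation list (16 genes) beside C1S, as bars for each of 3 post-MI and 3 naive libraries on linear axes from 0. The interferon list and CFB are both highest in post-MI replicate 3, at 3142 and 234 CPM, and the inflammatory list and C1S are both highest in naive replicate 1, at 4084 and 33.7 CPM.

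C1R encodes the protease of the C1 complex that cleaves and activates C1s. C1R was at 14.1, 10.3 and 35.3 CPM in post-MI replicates 1, 2 and 3, against 48.3, 13.6 and 9.07 CPM in naive replicates 1, 2 and 3. Naive replicate 1 and post-MI replicate 3 were high and the other 4 libraries lay close together. Group means were 19.9 ± 13.5 CPM with post-MI and 23.7 ± 21.5 CPM with naive plasma (SD, n = 3 each). This gave a log2 fold change of -0.25 ± 0.70 (SE; 0.924 was its adjusted p by edgeR), with a 95% interval of -1.90 to 1.40. It was 0.82 with naive replicate 1 left out and -0.95 with post-MI replicate 3 left out, so its sign differed with which of these libraries was in the fit.

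C1S encodes the protease that cleaves C4 and C2. It had 78, 41 and 291 counts in post-MI replicates 1, 2 and 3, against 674, 48 and 52 counts in naive replicates 1, 2 and 3. In CPM these were 4.18, 2.80 and 16.8 with post-MI and 33.7, 2.78 and 2.44 with naive plasma, a range of 13.8-fold from the highest to the lowest library. Of all genes tested, 2.88% had a range of at least 10-fold. Group means were 7.93 ± 7.71 CPM with post-MI and 13.0 ± 17.97 CPM with naive plasma (SD, n = 3 each), and in the naive group the SD exceeded the mean. In the fit C1S had a log2 fold change of -0.71 ± 1.12 (SE; 0.854 was its adjusted p by edgeR), with a 95% interval of -3.34 to 1.92. It was 1.61 with naive replicate 1 left out and -1.89 with post-MI replicate 3 left out.

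C1R and C1S are direct neighbours among the protein-coding genes of sheep chromosome 3 in the RefSeq gene order, and C1RL, a C1r-like protease gene, lies nearby. C1RL was at 3.27, 1.64 and 3.41 CPM in post-MI replicates 1, 2 and 3, against 9.26, 1.85 and 1.08 CPM in naive replicates 1, 2 and 3. Naive replicate 1 was thus the highest library for all 3 genes, as for 28.8% of genes tested, and post-MI replicate 3 was next. For C1RL the second place was close, at 3.41 CPM in post-MI replicate 3 against 3.27 CPM in post-MI replicate 1. Over all genes tested, naive replicate 1 first and post-MI replicate 3 second held for 4.26%, a comparison chosen after the values were seen. The genes did not move in a fixed ratio. C1S counts were 0.297, 0.272 and 0.476 of the C1R counts in post-MI replicates 1, 2 and 3, against 0.698, 0.204 and 0.269 in naive replicates 1, 2 and 3, so the ratio was highest in the library with the most of both. The log2 fold change of C1RL was -0.55 ± 0.78 (SE; 0.836 was its adjusted p by edgeR) and turned to 0.94 without naive replicate 1.

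Of 15 tested genes of the inflammatory activation list, 10 had naive replicate 1 and post-MI replicate 3 as their 2 highest libraries and 5 did not. That count, in either order, was made after the values were seen. Its share over all genes tested was not computed, and only the order with naive replicate 1 first has a share, 4.26%. TNFAIP3, an inhibitor of NF-kB signalling, was among the 5, at 16.0 CPM in post-MI replicate 3, while naive replicate 1 lay below both other naive libraries. PTX3, PTGS2, IL1R1 and SELE were the others. SOD2, a mitochondrial superoxide dismutase induced by cytokines, was at 65.7, 49.0 and 238 CPM in post-MI replicates 1, 2 and 3, against 587, 66.0 and 75.1 CPM in naive replicates 1, 2 and 3. ICAM1, a leukocyte adhesion molecule, was at 192, 147 and 361 CPM with post-MI and 298, 137 and 97.5 CPM with naive plasma, and the cytokine IL6 reached 1102 CPM in naive replicate 1 against 73.1 to 196 CPM in the other 5 libraries. The summed inflammatory list was highest in naive replicate 1 (4084 CPM), next in post-MI replicate 3 (1556 CPM), and between 635 and 924 CPM in the other 4. That list holds IL-8 and CXCL8, an older and a current symbol of what may be 1 locus, and both are among the 10. Whether the inflammatory levels and the C1R and C1S levels are linked was not tested.

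**Figure D3:**
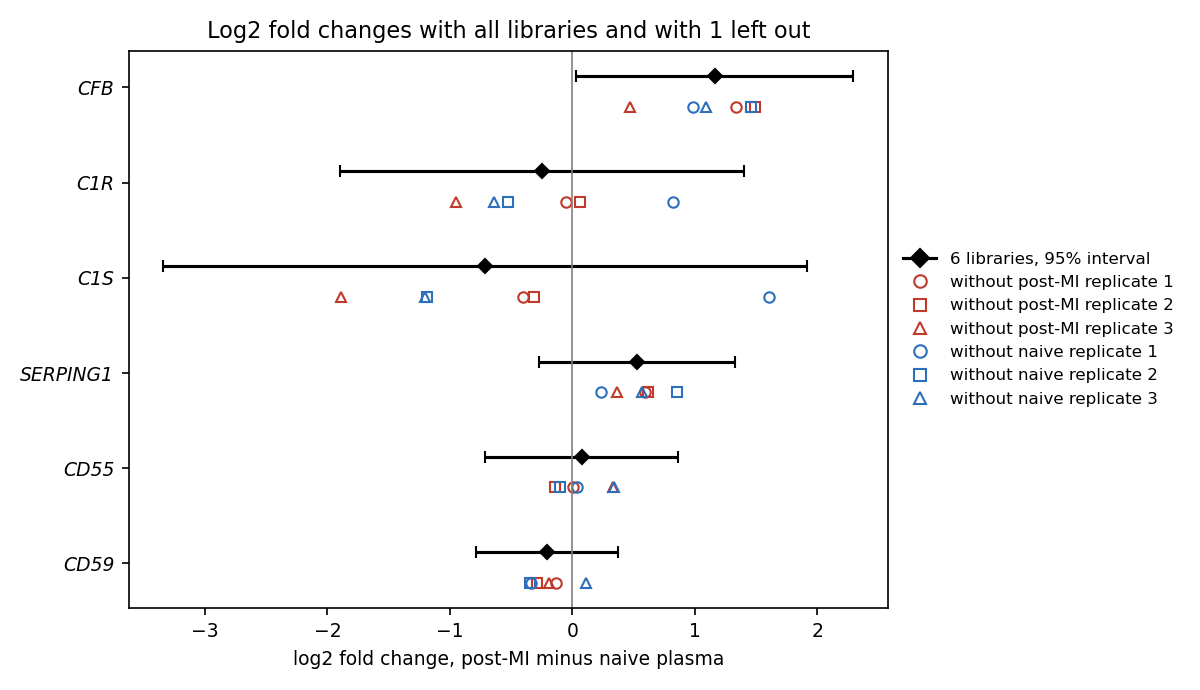
Log2 fold change of each measured complement gene, post-MI minus naive plasma, with all 6 libraries (black diamonds, 95% intervals before adjustment) and with each library left out (open symbols, red for post-MI and blue for naive libraries). CFB stays positive throughout, from 0.47 to 1.49, and C1S spans -1.89 to 1.61.

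SERPING1 encodes C1 inhibitor, a secreted serpin that inactivates C1r and C1s and also proteases of the contact system. SERPING1 was at 77.3, 74.7 and 104 CPM in post-MI replicates 1, 2 and 3, against 31.7, 83.5 and 62.7 CPM in naive replicates 1, 2 and 3. The lowest library was naive replicate 1, while naive replicate 2 exceeded 2 of the 3 post-MI libraries. Means were 85.3 ± 16.2 CPM with post-MI and 59.3 ± 26.1 CPM with naive plasma (SD, n = 3 each). For SERPING1 the log2 fold change was 0.53 ± 0.34 (SE; 0.640 was its adjusted p by edgeR), with a 95% interval of -0.27 to 1.33. It was 0.23 with naive replicate 1 left out and 0.86 with naive replicate 2 left out. SERPING1 was therefore lowest in the library where C1R and C1S, the proteases its product inhibits, were highest. In post-MI replicate 3 all 3 genes were above their medians. Of genes tested, 29.2% had their lowest level in naive replicate 1.

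CD55 encodes decay-accelerating factor, a membrane-anchored protein that takes apart C3 and C5 convertases. CD55 had 197, 182 and 103 counts in post-MI replicates 1, 2 and 3, against 171, 115 and 258 counts in naive replicates 1, 2 and 3. In CPM these were 10.6, 12.4 and 5.95 with post-MI and 8.56, 6.66 and 12.1 with naive plasma, and each group held both high and low libraries. The highest library was 2.09 times the lowest. CD55 had a log2 fold change of 0.08 ± 0.33 (SE; 0.953 was its adjusted p by edgeR), with a 95% interval of -0.71 to 0.87, or 0.611- to 1.82-fold. Post-MI replicate 3, the highest library for CFB, was the lowest for CD55. The genes whose pattern was most like that of CD55 over the 6 libraries were ZNF175, ITGA9 and SLC2A4, with Pearson correlations of log2(CPM + 0.5) of 0.988, 0.983 and 0.978. Correlations of at least 0.9 were reached by 55 of 14325 other genes. ZNF175, ITGA9 and SLC2A4 were picked as the highest of 14325 correlations over 6 libraries, so high values come with the selection. The 6 points share scaling by library total, and a link of these genes to CD55 was not tested.

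CD59 encodes a small membrane-anchored protein that keeps C9 from joining the membrane attack complex. CD59 was at 151, 186 and 164 CPM in post-MI replicates 1, 2 and 3, against 154, 154 and 269 CPM in naive replicates 1, 2 and 3. Naive replicate 3 was 1.45 times the next library, and the other 5 libraries lay within 1.24-fold of each other. Means were 167 ± 17.99 CPM with post-MI and 192 ± 66.5 CPM with naive plasma (SD, n = 3 each). The log2 fold change was -0.21 ± 0.25 (SE; 0.802 was its adjusted p by edgeR), with a 95% interval of -0.79 to 0.37, or 0.579- to 1.29-fold. It was 0.11 without naive replicate 3. CD59 had the narrowest interval of the 6 members, and neither naive replicate 1 nor post-MI replicate 3 stood out for it.

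The other genes of the pathway were taken from lists of 52 genes, of which 39 were in the table and 17 passed the count filter. EdgeR, DESeq2 and limma-voom each called 0 of the 17 in either direction, and DESeq2 gave no adjusted p for MASP1, CFP and CPN1. At an unadjusted p under 0.05 edgeR gave 1 higher (CD93) and 1 lower (ITGAX) with post-MI plasma. Over all genes tested that share was 8.68% in either direction. Log2 fold changes were positive for 11 and negative for 6, beside 6862 positive and 7464 negative over all genes tested. The 17 genes had a median of 0.29, beside -0.01 over all genes tested. The median of the 17 was -0.13 with post-MI replicate 3 left out and 0.09 with naive replicate 1 left out.

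Counts of 0 marked much of the cascade in these libraries, while 17030 of all 18865 rows had a count in some library. How far a 0 depends on the annotation used for counting was not tested. The C1q chains C1QA, C1QB and C1QC, the partners of C1r and C1s in the C1 complex, had 0 counts in all 6 libraries, and a count of 0 allows up to 0.141 to 0.205 CPM. The lectin pathway sensors MBL2 and FCN1 were also at 0. Of 6 terminal pathway genes, whose products form or start the lytic pore, 4 (C5, C6, C8A and C8B) were at 0 in all libraries, C9 reached 2 counts and C7 had 1 to 10. The receptors C5AR1 and C5AR2 for the C5a fragment were at 0. C3AR1, the receptor for the C3a fragment, had 2, 7 and 9 counts with post-MI and 1, 4 and 23 counts with naive plasma. The alternative pathway protease gene CFD had 22, 2 and 17 counts with post-MI and 3, 4 and 11 counts with naive plasma, below the filter. Properdin, the stabiliser of the alternative convertase encoded by CFP, had 9 to 22 counts over the 6 libraries and a log2 fold change of 0.44 ± 0.42 (SE; 0.748 was its adjusted p by edgeR).

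Lectin pathway collectins were detected. COLEC10, a secreted collectin that binds sugars on target surfaces, was at 147, 149 and 107 CPM in post-MI replicates 1, 2 and 3, against 7.11, 104 and 102 CPM in naive replicates 1, 2 and 3. All post-MI libraries were above all naive libraries, with the closest pair at 107 and 104 CPM. Full separation in either direction held for 16.1% of genes tested. Naive replicate 1 was far below the rest. The log2 fold change of COLEC10 was 0.92 ± 0.79 (SE; 0.723 was its adjusted p by edgeR), and 0.39 without naive replicate 1. Its partner COLEC11 was at 14.5, 17.6 and 6.47 CPM with post-MI and at 4.75, 11.0 and 9.12 CPM with naive plasma, with a log2 fold change of 0.63 ± 0.43 (SE; 0.655 was its adjusted p by edgeR). The collectin-associated protease gene MASP2 was at 7.99, 6.49 and 7.16 CPM with post-MI and at 4.45, 7.64 and 7.47 CPM with naive plasma. MASP2 was chosen after its values were seen.

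Among receptors and regulators, CD93 and THBD were the endothelial genes with the larger differences. CD93, a transmembrane glycoprotein once described as a C1q receptor, was at 299, 327 and 136 CPM in post-MI replicates 1, 2 and 3, against 61.8, 132 and 143 CPM in naive replicates 1, 2 and 3. Its log2 fold change was 1.18 ± 0.42 (SE; 0.558 was its adjusted p by edgeR), and 0.90 to 1.48 over the single libraries left out. THBD, the thrombin receptor thrombomodulin, which also promotes inactivation of C3b, was at 228, 194 and 117 CPM with post-MI and at 17.2, 153 and 79.5 CPM with naive plasma. Its log2 fold change was 1.11 ± 0.68 (SE; 0.626 was its adjusted p by edgeR), and 0.64 without naive replicate 1. In both genes post-MI replicate 3 was the lowest post-MI library and lay within the naive range. Endothelial identity markers were mixed. Of 12 such markers edgeR called 0, and log2 fold changes were positive for 9 and negative for 3. The negative ones were NOS3 (-0.13), KDR (-0.29) and TEK (-0.31). At an unadjusted p under 0.05 edgeR gave 4 of the 12 higher with post-MI plasma, beside 660 of the 14326 genes tested. The log2 fold changes of these 4 were 2.27 for CLDN5, 1.43 for VWF, 1.30 for ROBO4 and 0.55 for EGFL7. DESeq2 called ROBO4 alone of these 4, with an adjusted p of 0.0452. CLDN5, a tight junction gene, was at 14.1, 20.2 and 5.14 CPM in post-MI replicates 1, 2 and 3, against 0.200, 3.53 and 4.42 CPM in naive replicates 1, 2 and 3. Post-MI replicate 3 was the lowest post-MI library for all 4 markers. Of the 12, NOS3 and ERG had post-MI replicate 1 lowest instead. NOS3 was at 174, 284 and 309 CPM in post-MI replicates 1, 2 and 3. The part of endothelial identity in the CD93 and THBD values was not tested, and these markers were named after their values were seen.

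ITGAX, the alpha chain of complement receptor 4, was at 0.536, 0.342 and 1.27 CPM in post-MI replicates 1, 2 and 3, against 2.80, 1.74 and 2.11 CPM in naive replicates 1, 2 and 3. These were 10, 5 and 22 counts with post-MI and 56, 30 and 45 counts with naive plasma. The CPM of the groups did not overlap, as was the case in either direction for 16.1% of genes tested. For ITGAX the log2 fold change was -1.61 ± 0.51 (SE; 0.530 was its adjusted p by edgeR). Its beta chain partner ITGB2 had 1 count in 1 naive library and 0 in the other 5. The multifunctional protein C1QBP had a log2 fold change of -0.11 ± 0.21 (SE). CPN1, a carboxypeptidase gene whose product trims C3a and C5a, had -0.63 ± 0.50 (SE).

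**Figure D4:**
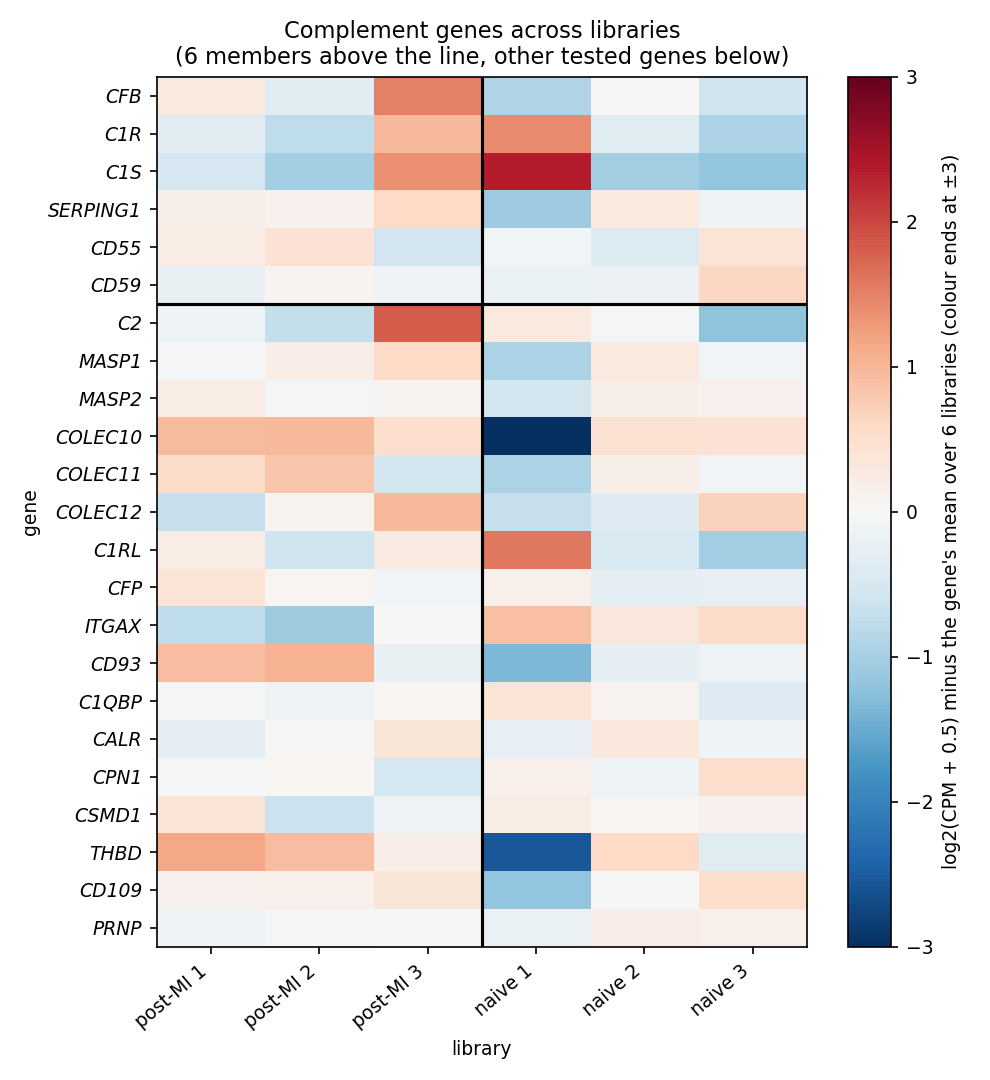
Log2(CPM + 0.5) of each tested complement gene minus its own mean over the 6 libraries, for 6 members above the line and 17 other genes below it, with post-MI libraries on the left. Naive replicate 1 is high for C1R, C1S and C1RL and low for COLEC10, THBD and CD93, and post-MI replicate 3 is high for CFB and C2; the colour scale ends at ±3 and COLEC10 in naive replicate 1 lies beyond it.

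With both naive replicate 1 and post-MI replicate 3 left out, 2 libraries remained in each group. The log2 fold changes were then 0.31 for CFB, 0.13 for C1R, 0.44 for C1S, 0.07 for SERPING1, 0.30 for CD55 and -0.32 for CD59. In that fit edgeR called 0 of the 6 members and 3 genes of 14362 in all, and it was added after the data were seen. The 6 members thus spanned -0.32 to 0.44 there, against -0.71 to 1.16 with all libraries.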

How the data were processed

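Per the labels' protocols, sequencing was paired-end on libraries from a strand-marking mRNA kit. Per the submitters' processing notes, the build was Oar_v3.1 and the tools included STAR 2.5.2b, featureCounts 2.0.0 and, among others, DESeq2 1.26.0. Which annotation and strand setting the counting used is not given in the sources used here. Raw counts per gene symbol form the deposited table of the whole series. The signal in the deposited per-sample files was the count over a constant of that library, for 100% of non-zero counts within 0.01%, and served for that check alone. RefSeq names and gene order (ARS-UI_Ramb_v3.0) were used without coordinates, since the builds differ. No sequence was read.

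Counts were analysed in R 4.3.3 with edgeR 4.0.16: filterByExpr (minimum count 10, minimum total 15), TMM scaling and the quasi-likelihood test, post-MI against naive plasma, with Benjamini-Hochberg adjustment at 0.05 over all genes tested. CPM are on TMM-scaled totals. CPM are not divided by gene length, so levels were not compared between genes. Each SE is the size of the log2 fold change divided by the square root of F. The floor is 3 counts per library and covers counting error only. Alternatives were DESeq2 1.42.0, limma-voom (limma 3.58.1), other scaling and filters, a replicate block and each library left out. The tests were tried on simulated data of this design. The simulation had no library standing apart, so it cannot show how the tests treat such libraries. Every pair of libraries in a group differed by at least 15.2 times the sampling variance. The members and lists were chosen with earlier results of these data known. All measured members are named, with up to 3 genes of smallest p per pathway list, genes a result turns on, and the 3 genes most like CD55. Likeness to C3 was not analysed here. Some genes of the lists are not reported here.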

Additional observations from a re-analysis of the deposited data

How the results depend on the processing

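With all 6 libraries, scaling and filter choices, limma-voom and DESeq2 left the direction of all 6 members and 0 members and 0 other complement genes called. DESeq2 called 218 genes in all, against 0 in edgeR, and gave no p for C1S. limma-voom moved C1S to -0.06 and C1R to -0.06, against -0.71 and -0.25 in edgeR, and the cause was not tested. Over the single libraries left out, edgeR called 0 genes, 0 members and 0 other complement genes each time. The log2 fold changes then ran from 0.47 to 1.49 for CFB, -0.95 to 0.82 for C1R, -1.89 to 1.61 for C1S, 0.23 to 0.86 for SERPING1, -0.14 to 0.34 for CD55 and -0.34 to 0.11 for CD59. Signs turned for C1R on leaving out naive replicate 1 (0.82) or post-MI replicate 2 (0.06), for C1S without naive replicate 1 (1.61), for CD55 on leaving out naive replicate 2 (-0.10) or post-MI replicate 2 (-0.14), and for CD59 without naive replicate 3 (0.11). Without both naive replicate 1 and post-MI replicate 3, C1R gave 0.13 and C1S 0.44, and 3 genes were called in all. Fewer samples were fitted there, and the cause of the turns was not tested otherwise.

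The labels do not say whether replicate numbers pair the libraries. Deviations of same-numbered libraries correlated at 0.15, -0.10 and 0.10 for numbers 1, 2 and 3. Not every library correlated best with its own number. These deviations were from means of 3 libraries, where 1 library can weigh heavily, so they cannot exclude pairing. With the replicate number as a block, edgeR called 0 genes and 0 members, with 0 members at an unadjusted p under 0.05. The log2 fold changes were then 1.01 for CFB, -0.11 for C1R, -0.09 for C1S, 0.62 for SERPING1, 0.07 for CD55 and -0.16 for CD59.

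The fewest counts in a library were 41 for C1S and 103 for CD55, and each comparison rests on 3 libraries per group.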
